A study of Mus musculus with 8 samples.

Results

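YTHDF3-associated transcripts of mouse embryonic fibroblasts (MEFs) grown in complete medium were taken from the 2 peak lists of the normal condition, in which immunoprecipitated (IP) RNA was set against input RNA of the same replicate. Replicate 1 held 17546 peaks and replicate 2 held 22189, together 39735 of the 87940 peaks listed over all conditions. A peak that overlapped a peak of the other list by at least 1 bp was called replicated, and overlapping peaks were joined into 1 region. The 9212 replicated regions described here arose from 10613 peaks of replicate 1, 60.5% of that list (95% Wilson interval 59.8 to 61.2%), and 9862 peaks of replicate 2, 44.4% of that list (43.8 to 45.1%). These intervals cover counting error only. Each region was described by its IP/input ratio in both replicates, with the input value set to no less than 3. Genes were ranked by the smaller of the 2 ratios and by IP reads. Ratios were taken from the deposited values, which in replicate 1 are scaled reads, while read numbers are given before scaling.

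The fibroblasts were wild type C57BL/6 cells, isolated at embryonic day 13.5 and used at passages 5 to 6. The normal condition had 4 samples, an untreated input and an untreated YTHDF3 IP in each of 2 replicates, of 8 samples in the series. Endogenous YTHDF3 was pulled down with an antibody and the RNA recovered from it was sequenced, so a peak marks RNA that came down with the protein and need not be a contact site. The labels do not say that the replicates came from separate cultures. No IP with a control antibody was used here, so RNA that any antibody and bead would retain cannot be told apart from RNA held by YTHDF3.

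YTHDF3 is a cytoplasmic protein with a YTH domain that reads N6-methyladenosine (m6A), the most common internal modification of messenger RNA. Writers led by METTL3 and METTL14 place m6A within DRACH sequences, of which GGAC holds the core, and erasers such as ALKBH5 remove it. YTHDF3 acts with YTHDF1 and YTHDF2 and has been linked to both translation and decay of methylated transcripts. In most cells m6A lies mainly in long internal exons, in the 3′UTR and around the stop codon.

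The peak lists name a gene by its nearest promoter, and this name was often a neighbour of the transcript. In 5246 of the 9212 regions (56.9%) the deposited name belonged to a gene with an exon in the region, by the GENCODE M21 annotation of the same mm10 build. Regions named Cds1 lay in exons of Wdfy3, those named Adam30 in exons of Notch2, those named Tigar in Ccnd2 and those named Gm13872 in Cd44. Genes are therefore given below by the exon, with the deposited name where it differs. By deposited name 3343 genes had a replicated region, and 2937 of the 21924 annotated protein-coding genes were among them, 13.4% of the annotation. By exon overlap 2637 protein-coding genes had one, 12% of the annotation. A protein-coding exon was present in 8714 regions (94.6%), an exon of another gene class in 77 and no exon in 421. In 343 regions exons lay on both strands, and the lists give no strand for a peak.

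Transcripts with many IP reads (Thbs1 to Tns1), with the highest ratios at few reads (Frat2 and Grin3b) and with high ratios at deep coverage (Mfhas1 to Vps18) are shown first by sequence, because GGAC is the core in which m6A is placed. Each line is a stretch of coding exon of 64 bases, on the transcribed strand and from 5′ to 3′, around the GGAC nearest to the center of the best replicated overlap, which is written in capitals. Other GGAC copies in a line stay in lower case. All were read from the GENCODE transcripts and were identical to the GRCm38 genome.
Thbs1, exon 3 of 22, chr2:118113109-118113172, plus strand: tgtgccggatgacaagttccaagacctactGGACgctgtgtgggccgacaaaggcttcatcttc
Plec, exon 32 of 32, chr15:76176450-76176513, minus strand: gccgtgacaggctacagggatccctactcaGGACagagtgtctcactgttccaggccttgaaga
Prss23, exon 2 of 2, chr7:89510215-89510278, minus strand: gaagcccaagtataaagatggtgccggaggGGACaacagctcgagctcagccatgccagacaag
Prrc2a, exon 15 of 31, chr17:35157425-35157488, minus strand: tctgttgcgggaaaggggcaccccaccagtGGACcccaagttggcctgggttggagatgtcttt
Col6a3, exon 4 of 41, chr1:90811536-90811599, minus strand: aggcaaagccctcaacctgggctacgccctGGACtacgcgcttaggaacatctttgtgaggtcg
Tns1, exon 19 of 33, chr1:73953189-73953252, minus strand: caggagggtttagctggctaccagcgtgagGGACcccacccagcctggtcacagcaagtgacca
Frat2, exon 1 of 1, chr19:41847822-41847885, minus strand: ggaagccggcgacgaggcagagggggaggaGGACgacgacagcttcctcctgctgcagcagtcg
Grin3b, exon 9 of 9, chr10:79976882-79976945, plus strand: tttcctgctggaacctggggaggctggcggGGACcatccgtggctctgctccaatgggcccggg
Mfhas1, exon 1 of 3, chr8:35589623-35589686, plus strand: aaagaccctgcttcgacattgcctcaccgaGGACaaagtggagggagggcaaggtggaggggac
Soga1, exon 5 of 15, chr2:157040433-157040496, minus strand: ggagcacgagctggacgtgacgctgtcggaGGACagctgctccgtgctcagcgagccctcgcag
Snx33, exon 1 of 2, chr9:56926682-56926745, minus strand: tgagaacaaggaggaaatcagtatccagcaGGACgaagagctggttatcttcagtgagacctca
Vps18, exon 4 of 5, chr2:119293676-119293739, plus strand: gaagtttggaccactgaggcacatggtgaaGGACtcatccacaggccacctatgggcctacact
The distance of the marked GGAC from the center ran from 6 bases in Prss23 to 99 in Grin3b. The Grin3b stretch lies outside the 70 bp shared by both lists (chr10:79976781-79976850), in the longer joined region. Several regions are kilobases long, so the center only stands for the region and a match of 4 letters is no evidence of a modified base. In Thbs1, Frat2 and Snx33 the marked GGAC is followed by G, a base that DRACH excludes in that place. The lines are a selection. Other regions centered in coding sequence are not shown, among them those of Tnc, Flna, Mmp28, Shank3, Kcnj4 and Itpripl1. Every line shown has a GGAC in the 200-nt window around the center, which limits the range of distances.

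In the replicated regions the enrichment was moderate and its size was shared only in part between the replicates. The smaller IP/input ratio had a median of 2.63, with quartiles of 2.28 and 3.18, and its highest value was 17.96. The lowest value was 2.01, since the lists hold peaks with a ratio of about 2 or more. In 7154 regions (77.7%) the ratios of the 2 replicates lay within 1.5-fold of each other. Across the 9212 regions the log2 ratios had a Pearson r of 0.49 and the ratios a Spearman rho of 0.43, while the log2 summed IP reads had an r of 0.90. Regions are not independent replicates, both axes share the gene's abundance and the threshold, and these values are given as a description. A ratio of at least 4 in both replicates was reached by 961 regions, 10.4% of all, and 8 or more by 37, of which 33 had 10 or fewer input reads over both lists.

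**Figure D1:**
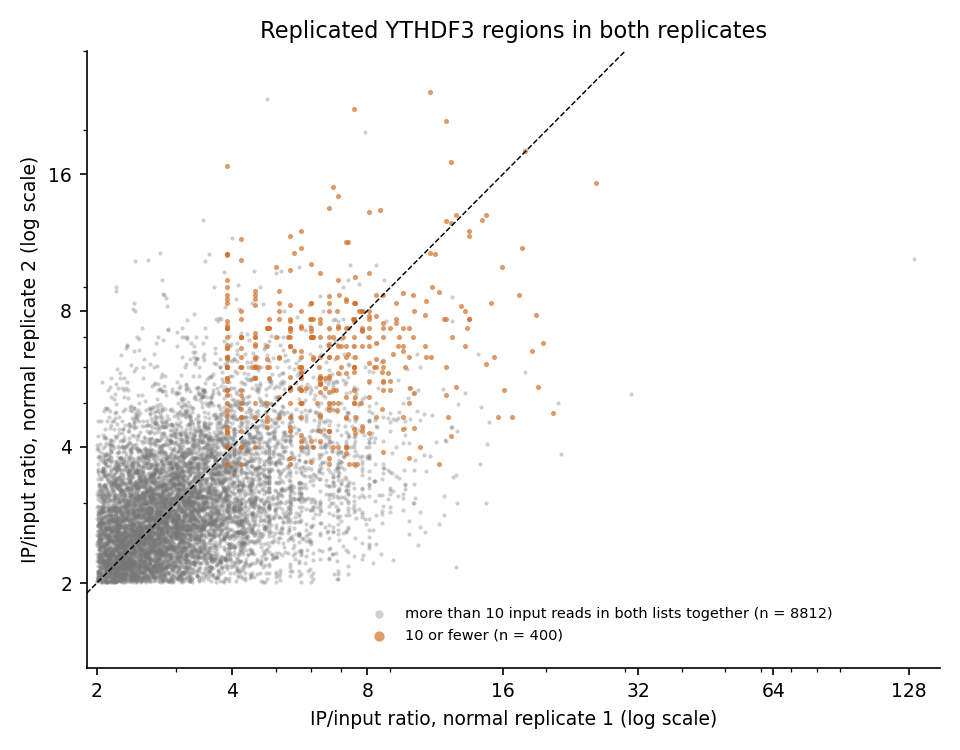
IP/input ratio of each replicated region in normal replicate 1 (x) and replicate 2 (y), both on log scales, with 1 point per region and the line of equal ratios dashed. Most points lie near the threshold of 2, and the 400 regions with 10 or fewer input reads over both lists (orange) hold 33 of the 37 regions with a ratio of at least 8 in both.

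High ratios were mostly found where the input was shallow. In the quartile of regions with the fewest input reads (0 to 54 over both lists) the median smaller ratio was 3.38 and 748 regions reached 4 in both replicates. In the quartile with the most input reads (354 or more) the median was 2.49 and 61 regions reached 4. The ratios of the replicates also lay further apart in the first of these quartiles, with a median absolute difference of 0.47 on the log2 scale against 0.20 in the last. The input was at or under the floor of 3 in either list in 691 regions (7.5%), and 390 of the 961 regions with high ratios were among them.

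The share of peaks found again moved with the read number. In the decile of the list with the fewest IP reads (13 to 22 reads in replicate 1 and 11 to 21 in replicate 2), 22.1% and 6.81% of the peaks overlapped the other list. In the decile with the most reads these shares were 85.4% and 76.5%. Replicated peaks had medians of 131 and 200 IP reads in replicates 1 and 2, and peaks seen in 1 list had medians of 55 and 63. Their ratios were not higher, with medians of 2.97 and 2.91 against 3.67 and 3.27 for the peaks of 1 list. In total the peaks held 8828814 IP reads in replicate 1 and 14409462 in replicate 2, against 2637966 and 5162203 input reads, and replicated peaks took 84.7% and 66.9% of the IP reads. Replicate 2 was thus the deeper list. A transcript without a replicated region is not shown to lack YTHDF3, and why peaks were found in 1 list alone was not tested.

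**Figure D2:**
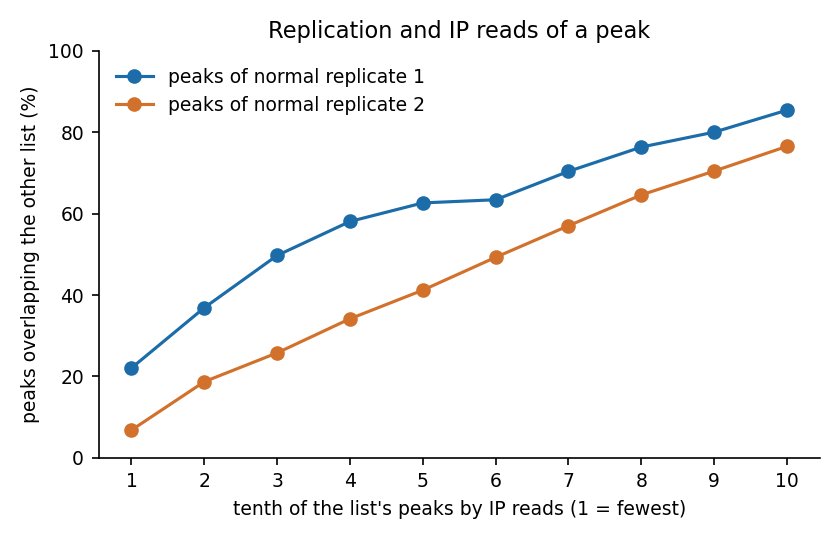
Share of peaks (y, %) that overlap the other normal list, by decile of the list's peaks ordered by IP reads (x, 1 holds the fewest reads), for replicate 1 (blue) and replicate 2 (orange). The share climbs from 22.1% to 85.4% in replicate 1 and from 6.81% to 76.5% in replicate 2.

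By IP reads, ranked by the smaller sum of the 2 lists, the fed fibroblasts were led by Thbs1, Tnc, Flna, Cd44 and Plec. The 11 genes with the most reads by exon that are described here took 17.7% of the IP reads of list 1 and 13.5% of list 2, with ratios of the summed reads between 2.09 and 3.62.
Thbs1 encodes thrombospondin 1, a secreted adhesive glycoprotein, and stood first in this order. Its 3 replicated regions held 385394 IP reads in replicate 1 and 407814 in replicate 2, or 4.37% and 2.83% of the list, with ratios of 2.55 and 2.53 for the summed reads. Most came from 1 region over exon 3 (chr2:118112371-118113770), with 251607 IP and 77062 input reads in replicate 1 and 258721 IP and 102894 input reads in replicate 2. The IP/input ratios of this region, with the scaled values of replicate 1, were 2.63 and 2.51. The unscaled reads of replicate 1 would give a higher ratio.
Tnc, which encodes the matrix protein tenascin C, followed with 266836 and 282800 IP reads in 5 regions and ratios of 2.35 and 2.70. Flna and Flnc encode filamins, which crosslink actin. Flna had 246672 and 317154 IP reads in 9 regions and ratios of 2.64 and 2.53, and its regions touched 42 of the 47 exons. Flnc had ratios of 2.09 and 2.66 over 6 regions. Flnc in replicate 1 was thus close to the threshold.

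Cd44, the receptor for hyaluronan, had 169060 and 225241 IP reads and ratios of 2.52 and 3.04, with 2 of its 10 regions deposited as Gm13872. Its largest region was the last exon with the 3′UTR, at 95399 IP and 29590 input reads in replicate 1 and 128505 and 45487 in replicate 2. Plec, which encodes the intermediate filament linker plectin, had the widest difference between replicates but one, at ratios of 2.56 and 3.48. Its largest region had an overlap of 11230 bp, centered in the last exon of 7410 bp. Csf1, the growth factor of macrophages, had ratios of 2.98 and 2.61, and its regions covered 98.7% of the transcript. Prrc2a, a proline-rich RNA-binding protein, had ratios of 2.84 and 3.26, and its 4 regions touched all 31 exons and 99.8% of the transcript.
Ccnd2 (deposited as Tigar in its main region) encodes cyclin D2 and had 58759 and 92922 IP reads at ratios of 2.66 and 2.70. Fat1, an atypical cadherin whose regions were mostly named AY512931, had 58090 and 89951 IP reads and ratios of 2.58 and 3.62, the widest difference among the 11. Tns1, the focal adhesion protein tensin 1 (mostly 6030407O03Rik), had 55647 and 77261 IP reads and ratios of 2.50 and 3.14. In 7 of the 11 genes the ratio was higher in replicate 2 by more than 0.1, and in Csf1 and Flna it was higher in replicate 1 by that margin. Only the replicate 1 values are scaled, and the part of this scaling in the differences between replicates was not tested. By the deposited names Prss23, a serine protease, and Col6a3, a chain of collagen VI, also stood among the first 12, with 56168 and 52020 IP reads in replicate 1 and 49706 and 69121 in replicate 2.

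**Figure D3:**
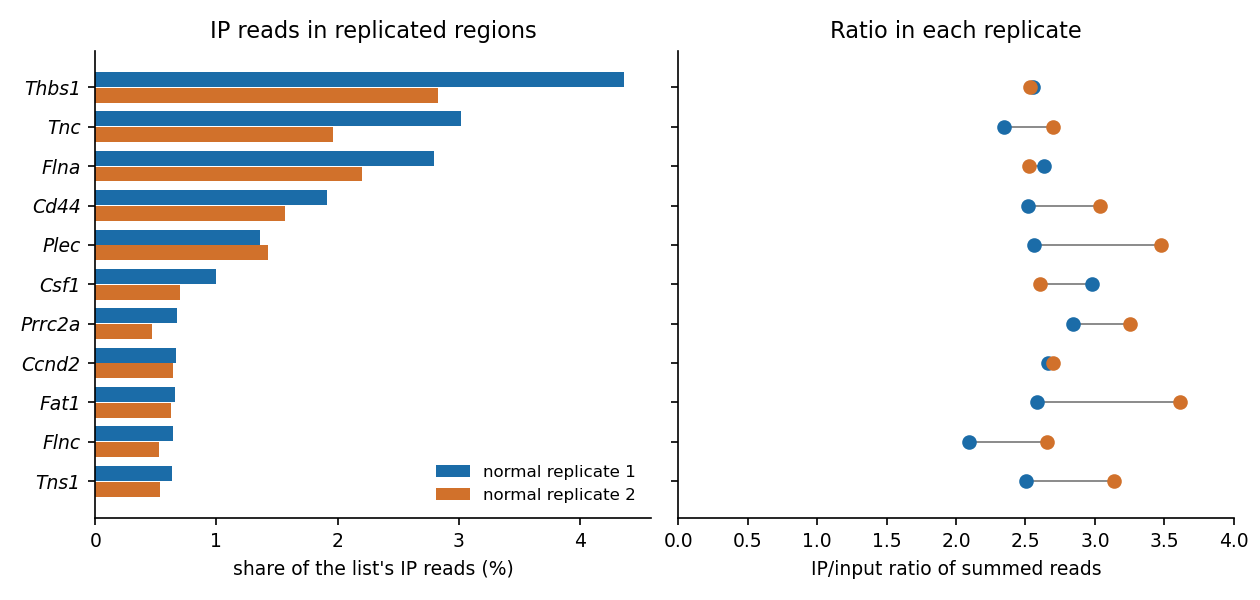
Left, share of each list's IP reads (x, %) in the replicated regions of the 11 described genes with the most reads by exon overlap, in normal replicate 1 (blue) and replicate 2 (orange). Right, IP/input ratio of the summed reads of the same genes, with a line between the replicates; the ratios lie between 2.09 and 3.62.

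By ratio other genes came first, none of them among the 12 with the most IP reads, and each rested on few reads (33 to 136 IP reads per list). The highest smaller ratio with at least 20 IP reads in each list was in the 3′UTR of Tmem229b, which encodes a transmembrane protein of little-known function. It had 60 IP and 0 input reads in replicate 1 and 54 IP and 1 input read in replicate 2. The ratios of 17.96 and 18 are both set by the floor, and a single further match of at least 95% identity to this region exists in the genome.
Kcnd2, a voltage-gated potassium channel, had 86 IP and 1 input read in replicate 1 and 46 IP and 3 input reads in replicate 2, ratios of 25.7 and 15.3. Metrn (deposited as Fam173a), a secreted growth factor, had ratios of 14.7 and 13. Mmp28 (1700020L24Rik), a secreted metalloproteinase, had 14.4 and 12.7. Each of these had IP reads of 38 to 86 per library, and the input in either library did not pass 4 reads.
The other 8 genes of the first 12 had smaller ratios between 10.8 and 12.6. They were 6430548M08Rik (deposited as Fam92b), Pcdhac2, Zfp235, Frat2, Mcc (Dcp2), Fignl2, Shank3 (Gm36221) and Grin3b. Frat2, which binds the kinase GSK3 and belongs to Wnt signalling, had 45 IP and 2 input reads in replicate 1 and 36 IP and 1 input read in replicate 2, with ratios of 13.5 and 12. Its region has 1 further match of at least 95% identity in the genome. Shank3, a scaffold of excitatory synapses, had 59 IP and 1 input read and 33 IP and 1 input read, with ratios of 17.7 and 11. Grin3b, a subunit of NMDA receptors, was the only one of the 12 with an input above the floor in both lists. Its 41 IP and 3 input reads, and 43 IP and 4 input reads, gave ratios of 11.02 and 10.75, with exact 95% counting intervals of 3.52 to 55.6 and 3.91 to 41.2. Just below the twelfth gene, at 10.7 and 10.4, stood the regions named Tep1 and Synb.

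With the input above the floor in both lists, Grin3b was followed by a region named Synb. It lies in the unprocessed pseudogene Gm21451 and showed 651 IP and 4 input reads in replicate 1 but 625 IP and 60 input reads in replicate 2. Its ratios of 131.4 and 10.4 lay far apart, and the region has a further near-identical match in the genome, so its reads could belong to either copy. A region named Bcl9l lay in the lincRNA C030014I23Rik (ratios 11.1 and 9). Vash1, an inhibitor of angiogenesis, had 11.6 and 8.80, the potassium channel gene Kcnj4 12.3 and 8.57, and the adenylate cyclase gene Adcy9 8.37 and 10.1. Adcy9 had the deepest support of these coding genes, with 83 IP and 8 input reads in replicate 1 and 111 IP and 11 input reads in replicate 2. When the floor on the input was 10 instead of 3, 1 of the 12 genes named for the highest ratio stayed among the first 50.

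High ratios at deep coverage were therefore looked for separately, a choice made after the values had been seen. Of 1080 regions with at least 1000 IP reads in both lists, 40 had a ratio of at least 4 in both, in 36 genes by exon. Mfhas1, a leucine-rich repeat GTPase-like protein (deposited as Gm16793), had 8669 IP and 1340 input reads in replicate 1 and 8106 IP and 1455 input reads in replicate 2, with ratios of 5.22 and 5.57 in its first exon. Fem1b, a substrate receptor of a CUL2 ubiquitin ligase, had 2975 IP and 461 input reads and 2841 IP and 488 input reads, with ratios of 5.20 and 5.82 in its 5′UTR. Soga1 (deposited as Dsn1) had ratios of 5.17 and 5.603. In each of these the replicates lay within 1.5-fold of each other and well above the median region.
Peg13, an imprinted noncoding RNA, had 4374 IP and 693 input reads in replicate 1 and 4737 IP and 820 input reads in replicate 2, with ratios of 5.09 and 5.78. Ip6k1 (Gmppb), an inositol hexakisphosphate kinase, had ratios of 5.07 and 4.73 in its 3′UTR. Itpripl1 had 4.73 and 5.02, Adra1d, an alpha-1 adrenergic receptor, 4.65 and 4.59, and the adhesion molecule gene Nectin1 4.75 and 4.58. Snx33, a sorting nexin of endocytosis, had 6.09 and 4.58, and Vps18, a core subunit of the tethering complexes of endosomes and lysosomes, had 4.57 and 4.45. The region with the highest smaller ratio at this depth, at ratios of 8.41 and 6.78, lay in Gm16867, and it too has a near-identical match elsewhere in the genome.

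Some transcripts carried regions along most of their exons. A single region was found in 1004 genes by exon (38.6%), the median was 2, 613 genes had at least 5 regions and 171 had at least 10. Wdfy3, a large adaptor of selective autophagy, had 38 regions (28 of them named Cds1) with 5245 and 10519 IP reads, and they covered 48.7% of its 14274-nt transcript. Their median smaller ratio was 2.39, and the highest was 4.06. Notch2, a receptor of Notch signalling, had 30 regions (25 named Adam30) in 32 of 34 exons, with ratios of 2.76 and 4.05 for its summed reads. These covered 88.5% of the transcript.
Hectd4, a HECT-type ubiquitin ligase, had 28 regions and ratios of 3.51 and 3.81, and in replicate 1 its ratio was the highest of the 6 genes with the most regions. Fbn2, which encodes fibrillin 2 of microfibrils, had 27 and ratios of 2.37 and 2.96. Tns1 and Myo9b, an unconventional myosin, had 23 each, and their regions covered 91.8% and 87.3% of the transcripts. Sipa1l3, a Rap GTPase-activating protein (20 of 21 regions named Dpf1), had ratios of 3.12 and 3.89 over 93.7% of its transcript. The regions named Mir7039 lay in exons of Smurf1 (15) and Trrap (10). Exons apart in the genome are joined in the RNA, so regions of 1 gene may come from the same RNA molecules and are not independent of each other.

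Gene lists showed which classes of transcripts were represented. The share of a list with a replicated region is read here against 12% of all protein-coding genes by exon and 13.4% by deposited name. The cell identity lists came first as a check. Of 16 fibroblast markers 3 had a replicated region in an exon: Pdgfrb, Fbn1 and Col5a1, with 18, 4 and 2 regions. None of 6 epithelial, 6 neural, 4 skeletal muscle or 3 pluripotency markers had one. Among 6 endothelial markers Kdr had 1 region, with 23 and 15 IP reads. Among 6 blood markers Csf1r had 1, which overlaps exons of the adjoining Hmgxb3. The files list enriched windows alone, so a marker without a region may still be expressed and the marker lists do not measure the makeup of the cultures.

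Signalling lists had a region more often than the background share, while their ratios were mostly near or under the median of 2.63 over all regions. The median smaller ratio was 2.54 in the insulin and FOXO list, 2.415 in the ERK feedback list, 2.45 in the TGF-beta list, 2.47 in the Notch list, 2.71 in the Hippo list and 3.20 in the Wnt list. In the insulin and FOXO list, which runs from receptors to the FOXO factors, 14 of 20 genes had a region by exon and 12 by deposited name. Of the receptors, Igf1r had 17 regions with 25688 and 39325 IP reads and ratios of 2.69 and 3.14, and Insr had 18 with ratios of 2.57 and 3.26. The adaptor genes Irs1 and Irs2 had ratios of 2.97 and 3.96, and of 4.13 and 4.48. The best pair of Irs2 peaks held 5059 IP and 928 input reads in replicate 1 and 5886 IP and 1264 input reads in replicate 2.
Foxo3, a forkhead factor that drives autophagy genes, had 4 regions with 6517 and 9707 IP reads and ratios of 3.21 and 4.70. Its pair with the highest smaller ratio lay in the 5′UTR. That pair had 316 IP and 56 input reads in replicate 1 and 222 IP and 52 input reads in replicate 2. These were a small part of the gene's IP reads, and the place of its other regions is not given here. Foxo1 had 2 regions and ratios of 2.87 and 4.15. Mtor, the kinase of both mTOR complexes, had 11 regions, while Tsc2, which restrains it, had 1 with 71 and 68 IP reads.

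Of the ERK feedback genes, 9 of 13 had a region by exon and 11 by deposited name, and for the other 2 the region that carried the name lay outside their exons. Spry1, Spry2 and Spry4, which inhibit signalling from receptor tyrosine kinases, had ratios of 3.92 and 3.72, 2.57 and 2.45, and 3.62 and 4.11. Spry4 had the most reads of these, 12581 and 19192. Spred2 and Spred3, related inhibitors, had 2.92 and 3.11, and 2.64 and 3.09. The phosphatase genes Dusp1, Dusp4 and Dusp5 and the factor gene Etv5 had ratios between 2.05 and 3.61. Of 23 receptor tyrosine kinases themselves 13 had a region, among them Fgfr1 (13 regions, 33702 and 30385 IP reads) and Ephb2 (13 regions).
Of 22 serum immediate-early genes 9 had a region by exon. Fosl2 had 25452 and 40298 IP reads and ratios of 2.86 and 3.30, and Jun had 15375 and 17994 and ratios of 2.79 and 2.77. Egr1, in contrast, was near the threshold in replicate 1, at 2.03 against 2.53.

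In the TGF-beta and BMP list 19 of 31 genes had a region by exon and 19 by deposited name. Smad7, the inhibitory Smad, had 21187 and 27222 IP reads in 4 regions and ratios of 3.52 and 3.85. Smad3, an effector, had 3.29 and 4.23, and Ski, a corepressor, had 2.56 and 3.71 with 18478 and 26332 IP reads. Smurf1, a ubiquitin ligase for Smads and receptors, had 16 regions. The receptors Acvr1 and Acvr1b had 11 and 9, whereas Tgfbr2 had 1 at ratios of 2.01 and 2.56.
In the Wnt list 18 of 31 genes had one, and 8 of these reached a ratio of 4 in both lists. Over all genes with a region, by deposited name, 721 of 3343 reached it. Of the 8, Frat2, Apc2 and Znrf3 rested on 20 to 58 IP reads and 1 to 5 input reads per list. Many of the genes with a region were frizzled receptors. Fzd7 had 19886 and 22150 IP reads and ratios of 3.76 and 4.52, Fzd1 had 4.01 and 5.09, Fzd8 4.35 and 4.56, Fzd5 4.11 and 4.04, and Fzd4 4.07 and 5.54. Fzd2, at 2.10 and 2.16, lay below all of these in both replicates. Fzd6 had 2.87 and 2.96, and Fzd3 had 4.84 and 2.705 with 30 and 119 IP reads. The coactivator genes Bcl9 and Bcl9l had 3.55 and 3.94, and 3.42 and 3.71. Apc and Gsk3b, of the complex that destroys beta-catenin, had 1 region each, with ratios of 2.10 to 2.44.
In the Notch list 8 of 17 genes had a region. Beside Notch2, the coactivator gene Maml1 had 3.03 and 3.99 and the ligand gene Jag1 2.24 and 3.32. Notch3 had 1 region with 74 and 40 IP reads, at 7 and 2 input reads. In the Hippo list 12 of 23 genes had one, including the protocadherin-like Fat1, Fat4 and Dchs1, the kinase genes Lats1 and Lats2, and Amotl2, with 46907 and 53055 IP reads and ratios of 2.66 and 2.94.

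Regulators of chromatin and of mRNA itself were also represented. Of 45 chromatin regulators 27 had a region by exon and 23 by deposited name, at a median smaller ratio of 2.44. The histone methyltransferase genes Setd1b and Kmt2b had ratios of 3.07 and 3.80, and 2.95 and 3.85, and Kmt2d had 14875 and 28353 IP reads in 12 regions. Of 32 genes of mRNA decay and microRNA action 17 had one, at a median of 2.53. Ago2, the slicing Argonaute, had 11 regions with 24815 and 47088 IP reads and ratios of 2.80 and 3.44, and the GW182 genes Tnrc6b and Tnrc6c had 6 and 13 regions. Dcp2, the decapping enzyme, had 2 regions of its own with 111 and 181 IP reads, apart from the region in Mcc that carries its name.
The m6A machinery was represented in part. Of 11 readers Ythdf2, Ythdf3 and Igf2bp1 had regions, with ratios of 2.14 to 2.65. The region in Ythdf3 itself had 65 IP and 21 input reads in replicate 1 and 188 IP and 71 input reads in replicate 2. It overlaps an annotated exon of Ythdf3, but its deposited class was intron. Its center lay outside the exons of the coding transcript that represented the gene. Of 11 writers and erasers, Alkbh5 had 13466 and 18786 IP reads and ratios of 2.98 and 3.61. Rbm15 and Rbm15b, which guide the writer complex to RNA, had 3.88 and 3.99, and 3.37 and 4.37. Virma had 1 region with 14 and 61 IP reads. In the autophagy list 9 of 36 genes had a region, among them Rubcn (15 regions, ratios of 2.46 and 3.06), Ambra1 (8) and Ulk1 (7).

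Among gene families, 28 of 68 protocadherins had a region by exon, and their 48 regions had a median smaller ratio of 3.335. Pcdh19 had 25908 and 37732 IP reads and ratios of 3.54 and 4.06, Pcdh7 had 4.21 and 3.997, and Pcdhgc3 2.64 and 2.93. Protocadherins of the alpha and of the gamma cluster share their last exons. Many of the other exons of clustered members are alike, so reads of single members are uncertain. Of 394 Zfp zinc finger genes 82 had one (20.8%), of 334 solute carriers 64 (19.2%), of 44 collagens 8, of 31 integrins 6 and of 39 Hox genes 5. These shares lay closer to the background.
Several housekeeping classes had few or no regions in exons. None of 83 ribosomal protein genes and none of 39 proteasome genes had a replicated region in an exon. By deposited name 5 and 2 did, and the regions named Rpl27, Rpl30 and Rpl7l1 lay in exons of the adjoining Rundc1, Matn2 and Bicral. Of 79 oxidative phosphorylation genes 2 had one by exon (Ndufa13, where the center lay in Tssk6, and Ndufs3), and of 55 genes of the translation initiation list 2 (Eif2ak3 and Eif4ebp2). Of 14 glycolytic enzymes 1 had one by exon (Hk2, with 13 regions) and 2 by deposited name, 7.14% and 14.3%. These shares do not set that list apart from the background. No olfactory receptor of 1092 and no vomeronasal receptor of 326, which fibroblasts hardly express, had a region in an exon.
The lists also differed in transcript length. The ribosomal protein and oxidative phosphorylation lists had median transcripts of 886 and 809 nt, and the chromatin and insulin lists 8454 and 7137, against 2581 for all coding genes. Other lists did not follow this order. The ERK feedback list, with a median of 2796 nt, had a region in 69.2% of its genes by exon, the collagens, with 5611 nt, in 18.2%, and the vomeronasal receptors, with 3376 nt, in none. The part of length and of abundance in the list shares was not tested.

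**Figure D4:**
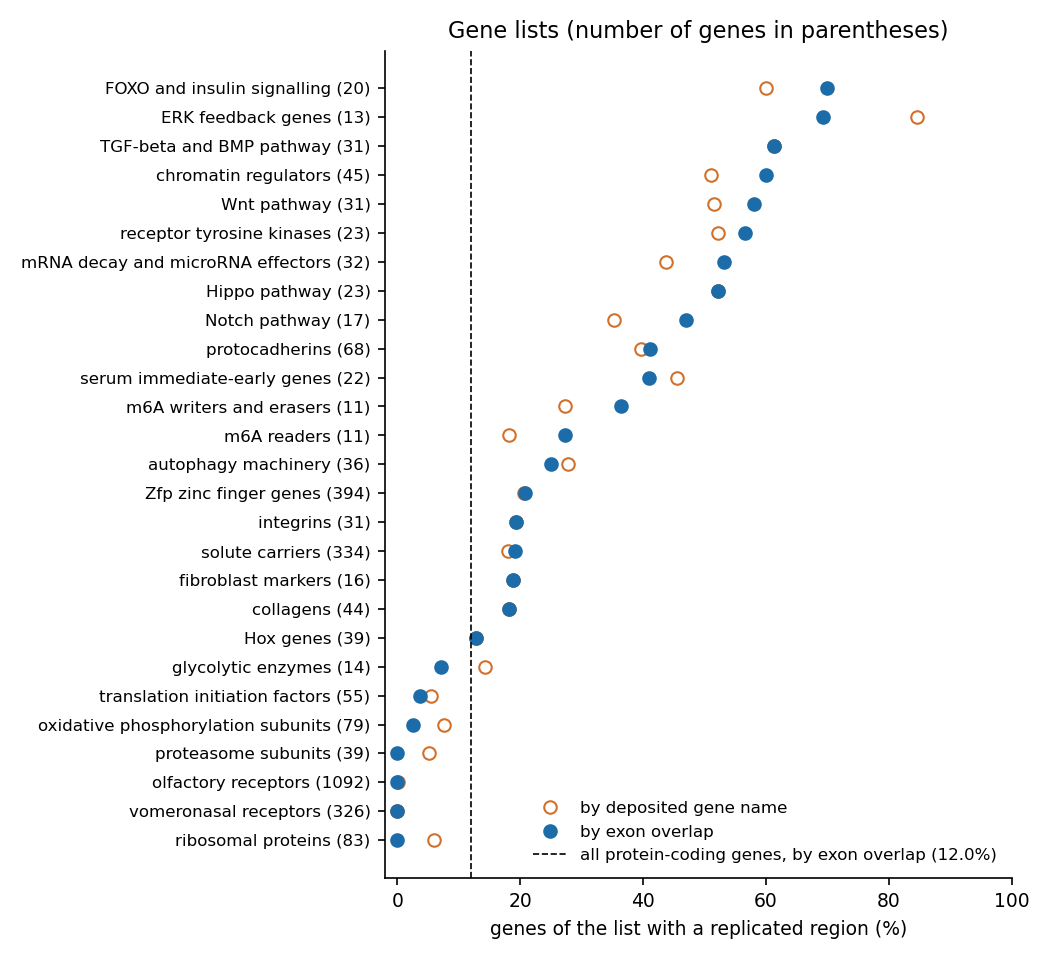
Share of each gene list (x, %) with a replicated region, by exon overlap (filled) and by deposited gene name (open), for the lists of at least 10 genes, whose sizes stand in parentheses. The dashed line is the 12% of all protein-coding genes with a region by exon; insulin, ERK feedback and TGF-beta lists lie above 60% by exon and ribosomal protein and proteasome genes at 0.

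Long transcripts were more often represented, over the whole annotation as well. In the decile of coding genes with the shortest transcripts (up to 923 nt) 5 of 2174 had a region center, or 0.23%. In the decile with the longest (5918 nt or more) 802 of 2175 had one, 36.9%. The 2390 genes with a region center on their coding transcript had a median transcript of 4872 nt, a coding sequence of 2020 nt and a 3′UTR of 2112 nt. Genes without one had medians of 2360, 1083 and 661 nt. A longer transcript offers more windows in which a peak can be called.

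On the transcripts the regions were centered mainly in coding sequence. Of 7387 regions whose center fell in an exon of a coding transcript, 5272 (71.4%) lay in the CDS, which made up 48.8% of the length of the same transcripts. The 3′UTR held 1413 centers (19.1%) against 45.3% of the length, and the 5′UTR 702 (9.50%) against 5.86%. Within 200 nt of the stop codon lay 444 centers (6.01%), against 7.26% of the length. In replicate 1 alone the share near the stop codon was 7.40%, and in replicate 2 alone 5.49%. In the lists taken singly the CDS share was 63.2% in replicate 1 and 72.2% in replicate 2, and the 3′UTR share was 26.0% and 20.7%. Both shares differed from the share of length by more than the lists differed from each other. Along the CDS the share of centers was 14.5% in the first decile and 6.64% in the last, and along the 3′UTR 14.8% and 3.96%. Median smaller ratios in the parts were alike, at 2.64 in the 5′UTR, 2.57 in the CDS and 2.75 in the 3′UTR.
By the deposited class of the peak in list 1, 4924 regions were in exons, 1367 in introns, 1302 in the 3′UTR, 512 in the 5′UTR, 506 at promoters, 264 in intergenic sequence, 170 in noncoding transcripts and 167 at transcript ends. Intergenic regions and transcript ends had the highest shares of regions with a ratio of at least 4 in both lists, 22.0% and 20.4%, at medians of 68.5 and 69 IP reads in the shallower list, while exons had 7.66% at a median of 146.

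Exons of ordinary length held more centers than their share of sequence. Exons over 100 and up to 150 bp took 17.7% of the centers but 8.89% of the summed transcript length, and those over 2000 bp held 24.8% against 52.4%. Internal exons held 59.9% of the centers against 37.1% of the length, first exons 12.9% against 7.62%, and last exons 25.7% against 52.5%. Each region was counted once by its center, whatever its length, so these shares are not shares of covered bases. A region over a long last exon counts as much as a region over a short internal one.

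**Figure D5:**
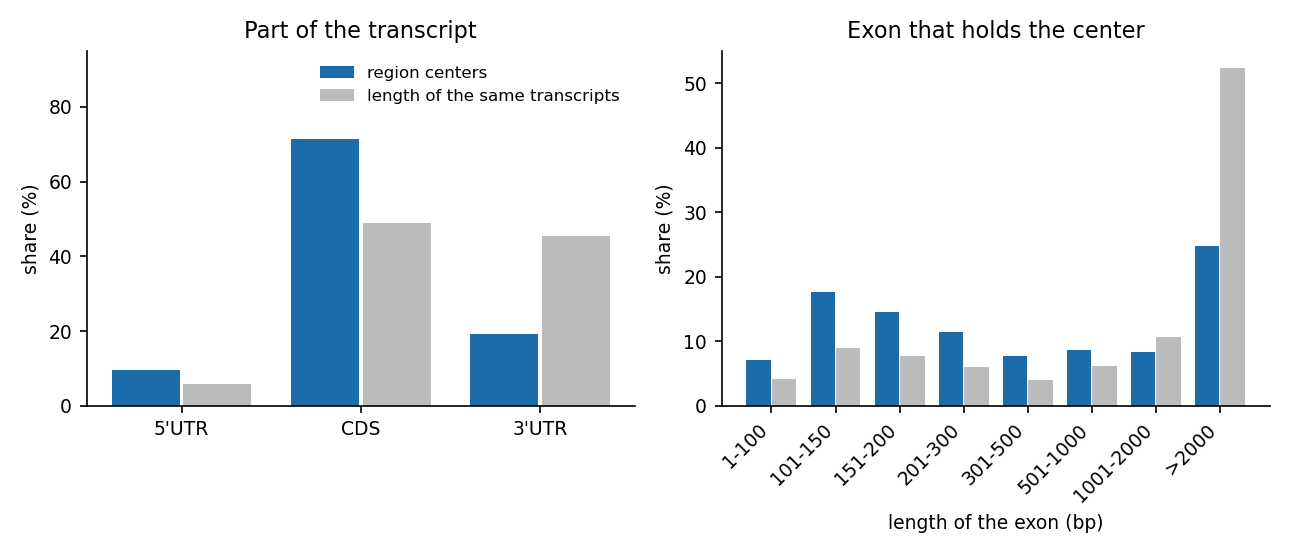
Left, share of region centers (blue) and of the length of the same coding transcripts (grey) in the 5′UTR, CDS and 3′UTR (y, %). Right, the same by length of the exon that holds the center (x, bp). Centers exceed the share of length in the CDS (71.4% against 48.8%) and in exons up to 1000 bp, and fall below it in exons over 2000 bp (24.8% against 52.4%).

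GGAC was present in most windows. Of the 7387 windows of 200 nt around a center, 4781 (64.7%) held it on the transcribed strand, against 53.7% of other windows of the same transcripts and 53.1% of the windows of all coding transcripts. The longer motif GGACT, which contains GGAC, was in 22.0%, against 19.4% and 19.0%. By part of the transcript, the windows with GGAC were 68.0% in the CDS, 67.5% in the 5′UTR and 50.96% in the 3′UTR. The share did not follow the ratio, at 65.4% in the quartile of regions with the lowest smaller ratio and 64.1% in the quartile with the highest. The other windows were not split by part of the transcript, and the 3′UTR made up 45.3% of the length but held 19.1% of the centers. The windows were also richer in G and C, with a mean of 55.6% against 51.1% over the windows of the same transcripts. The parts of position and of base composition in the motif share were not tested. The sequences shown above were cut around a GGAC, so their 1 to 3 copies in the window do not measure how often it occurs.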

How the data were processed

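The authors cleaned paired reads (Trimmomatic), mapped these to the mm10 build (TopHat, 2.0.13 in the submitters' processing notes), called IP peaks over input with diffReps in windows of 200 bp and gave each peak a gene with HOMER by the nearest promoter. Per the file headers each list gives IP and input values and a p-value for every peak. For replicate 2 the deposited values are read counts. For replicate 1 the deposited values are a signal, reads multiplied by 0.898 for the IP and 1.114 for the input, and all of them divided into whole reads within 0.01. The p-values deposited by the authors were used only as a filter in 1 alternative. The lists of the other condition were not used here beyond their number of peaks.

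Peaks were joined, ratios computed and regions placed on GENCODE M21 with Python 3.11.15, pandas 2.3.3 and scipy 1.17.1, and the functions were tested on simulated peaks. Each gene was represented by 1 coding transcript. Copies were sought with blastn 2.17.0 at 95% identity over at least 50% of a region. No test was run, since the peaks were selected for IP over input and there were 2 replicates. Named genes were the 12 with the highest smaller ratio (at least 20 IP reads in each list), the 12 with the most IP reads, the 6 with the most regions, the 6 with the highest ratio and an input above 3, and up to 3 per list; further members of a list, and the regions with 1000 IP reads, were chosen after their values were seen. The regions and the 33 gene lists were chosen with earlier results of these data known. Depth was 2637966 to 14409462 reads in peaks; total library sizes are not given in the sources used here. Alternatives were the overlap, ratio, read minimum, floor, gene assignment, window and each list alone. A gene among the 12 with the most IP reads by exon is not reported here.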

Additional observations from a re-analysis of the deposited data

How the results depend on the processing

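No paired analysis was possible because no test between groups was run; each ratio already set an IP against the input of its own replicate. With 50% reciprocal overlap, 39.1% and 30.9% of the peaks of replicates 1 and 2 were replicated and the log2 ratios had an r of 0.47; with at least 20 IP reads 63.6% and 47.2% were. With a ratio of at least 4 in each peak, 962 regions in 721 genes stayed (19.1% and 16.6% of the peaks), with a median smaller ratio of 4.71 and an r of 0.29, and 77 genes of the lists had a region, against 356. A floor of 10 on the input gave a median of 2.54 and an r of 0.29. Of the 12 genes with the highest ratio, 1 stayed among the first 50 with that floor and 1 with at least 50 IP reads. By exon 7 of the 12 stood among the first 50 under the same name. The others have an exon gene of another name and were not followed, so no loss of rank was shown for these. Near the stop codon, 2.54% of centers lay within 100 nt. GGAC was in 41.2% of 100-nt windows, against 32.8% of other such windows of the same transcripts, and GGACT in 22.0% of 200-nt windows. Each list alone gave 17546 to 22189 regions, 5509 to 5679 genes, a median ratio of 3.05 to 3.10, 63.2 to 72.2% of centers in the CDS, 20.7 to 26.0% in the 3′UTR, 5.49 to 7.40% near the stop codon, 61.3 to 63.8% of windows with GGAC and 520 to 545 genes of the lists. The shares of replicated peaks have no value without a list. By exon the share of 11 of the 33 lists was higher, of 9 lower and of 13 equal, at a ratio of 4 it was lower in 26 and equal in 7, and with replicate 1 or replicate 2 alone it was higher in 25 and 27 and lower in none. Among these the proteasome share by deposited name went from 5.13% to 17.9% in either list, the collagen share from 18.2% to 45.5% and 31.8%, and the Hox share from 12.8% to 33.3% and 23.1%. A single list drops the need for a peak in the other list, and a minimum ratio of 4 removes peaks. The direction of these share changes was therefore largely set in advance. The causes of their size and of the other differences were not tested.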

Other observations

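Replicated regions in exons of noncoding genes were few, 77 of 9212, and some were deep. Tug1, a long noncoding RNA, had a region with 4634 IP and 1204 input reads in replicate 1 and 4774 IP and 1782 input reads in replicate 2, with ratios of 3.10 and 2.68. The pseudogene Zfp862-ps had 2 regions, with ratios of 4.28 and 4.56, and of 4.55 and 4.34. A region deposited as Zfpm1 lay in Zfp469, which the annotation does not class as protein-coding, with 27112 and 39759 IP reads and ratios of 2.73 and 3.78.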
